A study of Mus musculus with 6 samples.

Results

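The Hox cluster genes were described in mouse embryonic stem cells in which Pcgf6 could be knocked down with a doxycycline-inducible hairpin. Members were all genes whose platform symbol is Hox followed by a cluster letter (a to d) and a number. This gave 37 genes of 19938 measured: 10 of cluster A, 9 of cluster B, 9 of cluster C and 9 of cluster D, on chromosomes 6, 11, 15 and 2. Each member had 1 probe set of its own. Hoxb8 is not among them, since it was read only by a probe set that carries the symbols of both Hoxb8 and Hoxb7.

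Expression was measured on 6 arrays of the V6.5 embryonic stem cell line, 1 array for each hairpin and dox state. Cells carried shRNA1 or shRNA2, both labelled Pcgf6, or a scrambled hairpin as control, and each was sampled after doxycycline (dox, 1 µg/ml), which switches the hairpin on, and in its absence. This made 2 induced and 2 uninduced Pcgf6 hairpin samples, and 1 induced and 1 uninduced scrambled sample. The samples of a Pcgf6 group carried different hairpins, the labels do not say that they were separate cultures, and the cells grew on inactivated mouse embryo fibroblasts, so RNA of feeder cells can be part of each sample. All values are log2 signals of a probe set, with arrays brought to a common distribution by the authors. Signals of different probe sets depend on their probes, so levels of different genes were not ranked against each other.

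Hox genes encode homeodomain transcription factors that give cells their position along the head-to-tail axis. They lie in clusters in which genes with low numbers act in anterior parts of the embryo and genes with high numbers in posterior parts. In embryonic stem cells the clusters are classic targets of Polycomb complexes, which keep them repressed until differentiation signals such as retinoic acid switch them on. Pcgf6 is a subunit of PRC1.6, a variant of the Polycomb repressive complex PRC1 that is recruited to DNA through partners such as E2F6 and MGA with MAX. Fibroblasts, unlike stem cells, express many Hox genes according to the part of the body they come from.

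The knockdown and the cell types were examined first. Pcgf6 measured 9.39 and 9.27 in the induced shRNA1 and shRNA2 samples, 11.56 and 11.70 without dox, and 11.82 and 11.80 in the scrambled samples with and without dox. Its change over both Pcgf6 hairpins was -2.30 on the log2 scale (SE 0.10, limma adjusted p = 0.000846). All 16 markers of pluripotent cells lay above the 95th percentile of 1210 olfactory and vomeronasal receptor probe sets on every array, a level used here to describe the low end of the signal (6.11 to 6.27). Of the fibroblast feeder list, 21 of 22 markers were measured, and 20 of the 21 lay above that level on every array. The exception was Lum. Mean feeder signal stood at 10.11 and 10.45 in the induced Pcgf6 samples, 10.11 and 9.98 in the uninduced ones, 9.78 in induced scrambled and 9.20 in uninduced scrambled. The feeder markers thus differed most between the scrambled samples, where all 21 were higher with dox, with a median difference of 0.59. The median difference was 0.47 in the shRNA2 pair, again with 21 of 21 higher, and -0.01 in the shRNA1 pair, with 8 higher. In such bulk samples a smaller share of a cell type and less RNA per cell cannot be told apart.

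Signals of the Hox genes lay at the low end of the arrays for many members. Of the 37, 24 were above the receptor level on all 6 arrays, 7 on some arrays and 6 on none. The 6 on none were Hoxa2, Hoxa3, Hoxa5, Hoxc4, Hoxc11 and Hoxd12. The same count was not made over all genes, so it is not shown to be particular to Hox genes. Of all genes, the dimmest 25% had a mean signal up to 6.01 and the dimmest 50% up to 7.55. A signal at that level does not show that the transcript was absent, and a change of a gene near the low end is compressed on this scale. Across the 6 arrays a member's signal varied by a median of 0.26 on the log2 scale, from 0.08 for Hoxc11 to 1.33 for Hoxc8. The median over all genes was 0.29, and over the 10946 other genes with a mean signal within the span of the Hox genes it was 0.31. A range of at least 1.5-fold was reached by Hoxb2, Hoxc8 and Hoxd8, 3 of 37 members, against a background of 9.47% of all genes.

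The main comparison asked whether Hox genes changed when a Pcgf6 hairpin was induced. None of the 37 passed: 0 rose and 0 fell by limma with Benjamini-Hochberg adjustment over all genes (smallest adjusted p = 0.554), against a background of 0.201% of genes called (40 genes, and between 14 and 26 when 1 Pcgf6 sample was left out). At an unadjusted p under 0.05, Hoxd8 alone passed, against a background of 8.75%. The fitted changes lay between -0.20 for Hoxa2 and 0.24 for Hoxb9, with a median of 0.01, where the median over all genes was -0.01, and with each array centred on its median the Hox median was just below 0 (-0.007). For 36 of the 37 genes the 95% interval of the change lay inside 1.5-fold in both directions. The exception was Hoxc8, whose interval ran from -0.70 to 1.15. Low-signal genes can change by more than these intervals state in transcript number.

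**Figure D1:**
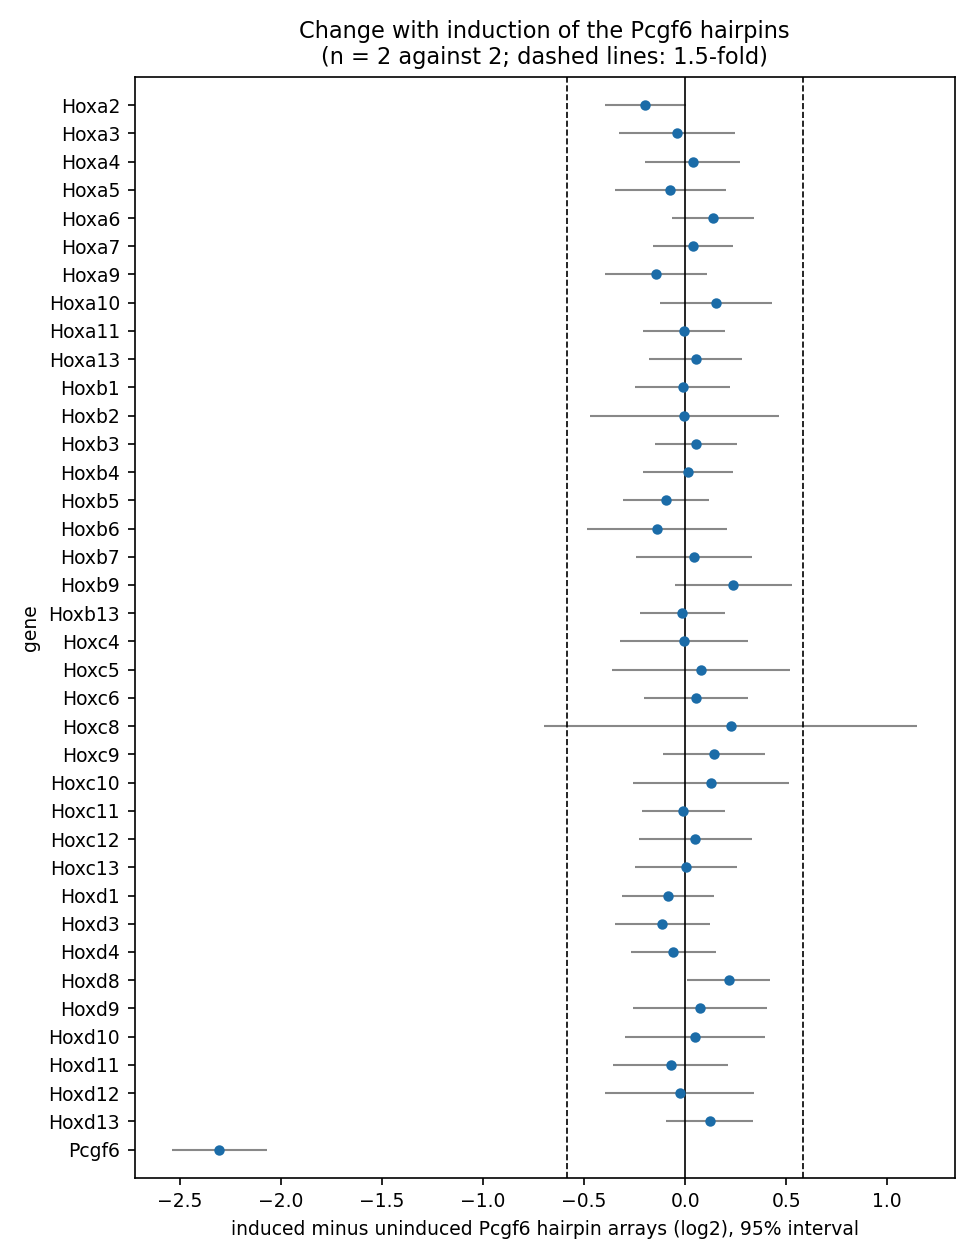
Fitted change (log2) of each Hox gene and of Pcgf6 between the induced and uninduced Pcgf6 hairpin samples, n = 2 against 2, with the 95% interval from limma as a horizontal line and 1.5-fold as dashed lines. The interval of every Hox gene except Hoxc8 lies between the dashed lines, and Pcgf6 stands at -2.30.

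Changes were also read within each line, that is the induced against the uninduced sample of 1 hairpin, with no replicate and no test. With shRNA1, 0 of 37 members differed by 1.5-fold in either direction, against a background of 0.627% of all genes higher and 0.241% lower. With shRNA2 the count was also 0 of 37, against 2.17% higher and 0.446% lower. In the scrambled pair 1 of 37 was higher, Hoxc8, and 0 were lower, against 1.48% and 0.211%. Members above 0 numbered 23 with shRNA1, 21 with shRNA2 and 21 in the scrambled pair, against 50.4%, 45.8% and 46.5% of all genes, with medians of 0.04, 0.02 and 0.03. The medians over all genes were 0.00, -0.02 and -0.01, and with each array centred on its median the Hox medians for shRNA2 and scrambled turned to just below 0 (-0.004 and -0.002). Both Pcgf6 hairpins gave the same sign for 17 of the 37 members, against 57.1% of all genes.

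**Figure D2:**
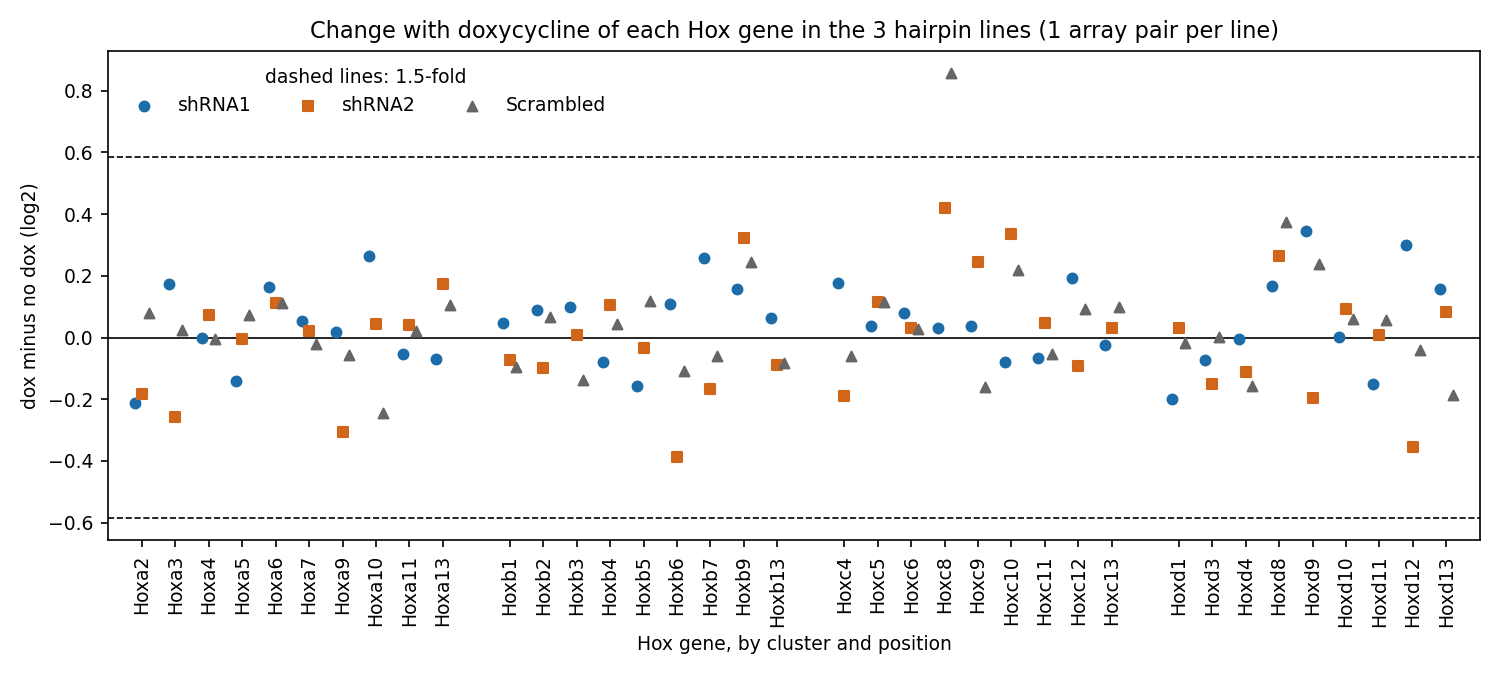
Difference between the sample with dox and the sample without (log2) for each Hox gene, ordered by cluster and position, in the shRNA1 (circles), shRNA2 (squares) and Scrambled (triangles) lines, 1 array against 1. All points lie within the dashed 1.5-fold lines except Hoxc8 in the scrambled line, at 0.86.

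The change under the Pcgf6 hairpins was then set against that in the scrambled pair. Of the 37 members 0 were called in either direction by limma (smallest adjusted p = 0.999), against a background of 0.0702% of genes (14, and between 0 and 4 when 1 Pcgf6 sample was left out), and 0 had an unadjusted p under 0.05, against 4.55%. The differences ran from -0.63 for Hoxc8 to 0.40 for Hoxa10. Because the scrambled samples were single, these intervals were wide, and for 16 of 37 genes the 95% interval reached past 1.5-fold in at least 1 direction. Hoxa7, Hoxa10, Hoxb3, Hoxc9 and Hoxd13 were higher with dox under both Pcgf6 hairpins and lower in the scrambled pair, 5 of 37 against 11.4% of all genes. Hoxa2, Hoxa5, Hoxb5 and Hoxd3 showed the opposite order, 4 of 37 against 12% of all genes. For none of these 9 did the difference pass.

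Members of cluster A varied little, with ranges over the 6 arrays between 0.12 and 0.33. Hoxa2, which sets the identity of the pharyngeal arch behind the jaw, measured 5.51 and 5.49 in the induced shRNA1 and shRNA2 samples, 5.72 and 5.67 without dox, and 5.63 and 5.55 in scrambled with and without dox. The induced Pcgf6 samples were therefore the lowest of the 6. The change of Hoxa2 was -0.20 (SE 0.08, limma adjusted p = 0.577), and all 6 values lay under the receptor level.

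Hoxa6 was the only member whose 3 samples with dox (6.47, 6.49 and 6.45) all lay above the 3 without (6.31, 6.38 and 6.34). Of all genes, 4.08% showed that order, so 1 of 37 is near the background. The opposite order was shown by 0 of 37 members and 8.07% of all genes. Hoxa6 differed by 0.16, 0.11 and 0.11 in the shRNA1, shRNA2 and scrambled lines, and over the 3 lines by 0.13 (SE 0.06, limma adjusted p = 0.673, n = 3 against 3). Hoxa10, which acts in limb and uterus, measured 6.66 and 6.72 in the induced Pcgf6 samples, 6.40 and 6.68 without dox, and 6.41 and 6.66 in scrambled with and without dox. Its low samples were thus uninduced shRNA1 and induced scrambled, and the groups overlapped. Hoxa9, known for its part in blood progenitors, differed by 0.02 with shRNA1 and -0.31 with shRNA2, and Hoxa3, which acts in thymus and parathyroid formation, by 0.17 and -0.26. The remaining members Hoxa4, Hoxa5, Hoxa7, Hoxa11 and Hoxa13 differed by at most 0.17 in any line.

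In cluster B the members of widest range were Hoxb2 and Hoxb9. Hoxb9, which acts in the thoracic skeleton, measured 8.72 and 8.60 in the induced shRNA1 and shRNA2 samples and 8.56 and 8.27 without dox. In the scrambled line it measured 8.38 with dox and 8.13 without. Every line was higher with dox, by 0.16, 0.32 and 0.25, while the induced and uninduced samples overlapped across lines. The change over both Pcgf6 hairpins was 0.24 (SE 0.12, limma adjusted p = 0.643) and over the 3 lines 0.24 (SE 0.13, adjusted p = 0.676). Hoxb1, Hoxb3, Hoxb4, Hoxb5 and Hoxb13 differed by at most 0.16 in any line. Hoxb6 differed by 0.11, -0.39 and -0.11, its lowest sample being induced shRNA2 at 6.07, and Hoxb7 differed by 0.26, -0.17 and -0.06. The probe set shared by Hoxb8 and Hoxb7, named apart because it cannot be given to either gene, measured 6.65, 6.38 and 6.62 with dox and 6.71, 6.52 and 6.09 without in the shRNA1, shRNA2 and scrambled lines. Its low value was in uninduced scrambled.

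Cluster C held Hoxc8, of widest range among the 37. Hoxc8, a gene of thoracic identity in skeleton and motor neurons, measured 9.27 with dox and 9.24 without in the shRNA1 line, 8.53 and 8.11 in the shRNA2 line, and 8.80 and 7.94 in the scrambled line. Both shRNA1 samples were high, and the uninduced scrambled sample was the lowest. The samples with and without dox overlapped. The change was 0.03 with shRNA1, 0.42 with shRNA2 and 0.86 in the scrambled pair, so the single difference past 1.5-fold among Hox genes came from cells without a Pcgf6 hairpin. Over both Pcgf6 hairpins it was 0.22 (SE 0.38, limma adjusted p = 0.913), and leaving out single Pcgf6 samples moved it between -0.34 (without uninduced shRNA2) and 0.79 (without uninduced shRNA1), turning its sign without induced shRNA1 as well. The feeder list had medians of -0.01, 0.47 and 0.59 in the same pairs, and its part in the change of Hoxc8 was not tested.

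Among the other members of cluster C, Hoxc10, a gene of the lumbar spinal cord, measured 6.35, 6.28 and 6.42 with dox and 6.43, 5.94 and 6.21 without in the shRNA1, shRNA2 and scrambled lines. Its changes of -0.08, 0.34 and 0.22 were again smallest with shRNA1. Hoxc9, which acts in thoracic motor neurons, differed by 0.04, 0.24 and -0.16. Hoxc4, Hoxc5, Hoxc6, Hoxc11, Hoxc12 and Hoxc13 differed by at most 0.19 in any line.

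Cluster D included Hoxd8, which had the smallest p among members in the comparison of induced and uninduced Pcgf6 hairpins. Hoxd8 measured 6.84 with dox and 6.67 without in the shRNA1 line, 6.90 and 6.64 in the shRNA2 line, and 6.62 and 6.24 in the scrambled line. Within the Pcgf6 lines both samples with dox lay above both without, while induced scrambled lay below every Pcgf6 sample. The change over both Pcgf6 hairpins was 0.21 (SE 0.08, limma adjusted p = 0.554), from 6.65 ± 0.02 to 6.87 ± 0.04 (SD, n = 2). In the scrambled pair the difference was 0.38, and the difference between the responses was -0.16 (SE 0.15, adjusted p = 0.999). Hoxd9 differed by 0.34, -0.20 and 0.24, and Hoxd12 by 0.30, -0.35 and -0.04, so that the Pcgf6 hairpins gave opposite signs for both genes. Hoxd13, a gene of digit formation, measured 7.13 and 7.01 in the induced Pcgf6 samples, 6.97 and 6.93 without dox, and 6.80 and 6.99 in scrambled with and without dox. Its change was 0.12 (SE 0.09, adjusted p = 0.75). Hoxd1, Hoxd3, Hoxd4, Hoxd10 and Hoxd11 differed by at most 0.20 in any line. RefSeq spans of 10 members overlap that of another Hox gene, among them Hoxb3 with Hoxb4 and Hoxd3 with Hoxd4, so signals of such neighbours may not be separate.

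Promoter sequence was set beside these values because PRC1.6 reaches DNA through E2F6 and MGA with MAX. The 250 bases before the start were searched on both strands for the E-box CACGTG, the motif of MAX partners, and for TCCCGC, the core of E2F sites. A site of each kind can share at most 1 end letter with the other. RefSeq promoters on GRCm38.p6 matched 21 of the 37 members, with 23 promoters in all. Of these 4 of 23 (17.4%) held the E-box and 4 of 23 (17.4%) the E2F core, against 6.02% and 16.9% of all 32851 promoters. Among promoters of the genes called higher with the Pcgf6 hairpins, which are other genes than these, 11 of 38 (28.9%) held the E-box and 5 of 38 (13.2%) the E2F core. The number of CG dinucleotides in the window had a median of 13 in Hox promoters, 12 in those of the called genes and 6 in all promoters.

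The promoter of Hoxd13 is shown because it held the most matches among Hox promoters, 1 E-box and 5 E2F cores, and that of Hoxd8 because the gene had the smallest p among members in the comparison of induced and uninduced Pcgf6 hairpins. Capitals mark the matches, and that of Hoxd8 held none. The windows lie at chr2:74667975-74668224 and chr2:74704365-74704614, both on the plus strand.
Hoxd13: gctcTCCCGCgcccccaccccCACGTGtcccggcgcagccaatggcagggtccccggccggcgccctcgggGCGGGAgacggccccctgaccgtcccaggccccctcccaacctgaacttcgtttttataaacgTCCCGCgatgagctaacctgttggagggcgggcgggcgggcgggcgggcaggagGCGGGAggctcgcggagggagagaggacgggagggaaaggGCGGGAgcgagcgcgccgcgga
Hoxd8: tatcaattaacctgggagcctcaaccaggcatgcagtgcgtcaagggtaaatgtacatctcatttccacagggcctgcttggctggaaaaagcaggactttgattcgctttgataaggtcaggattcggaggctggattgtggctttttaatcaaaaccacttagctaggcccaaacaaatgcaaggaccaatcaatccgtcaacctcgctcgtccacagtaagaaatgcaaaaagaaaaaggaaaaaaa
Hoxd13, with 6 matches, measured a change of 0.12, and Hoxd8, with 0, a change of 0.21, neither of which passed. Both genes were picked, for most matches and for smallest p, and a link between matches and change was not tested. The E-box also occurred in promoters of Hoxd1, Hoxd10 and Hoxd11 and the E2F core in those of Hoxa13, Hoxd1 and Hoxd11, and these genes changed by between -0.08 and 0.05.

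By position, members were grouped as anterior (numbers 1 to 4, 11 genes), central (5 to 8, 10 genes) and posterior (9 to 13, 16 genes). The median change was 0.00, -0.10 and 0.00 for anterior genes in the shRNA1, shRNA2 and scrambled lines, 0.07, 0.03 and 0.09 for central genes, and 0.03, 0.04 and 0.04 for posterior genes. Central genes had the highest median in the shRNA1 and scrambled lines, and the members Hoxc8 and Hoxd8 with the widest ranges are among them. No test was made on these groups, and the spread of such group medians was not measured. For single Hox genes the median absolute difference within a line was 0.09, 0.11 and 0.08.

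A comparison of all samples with dox against all without, 3 against 3, asked for a change whatever the hairpin. It called 0 members and 0 of 19938 genes by limma, a background of 0%. Without the induced scrambled sample, both samples left with dox were Pcgf6 knockdowns, so that fit did not ask for a change whatever the hairpin. It called 54 genes, none of them a Hox gene. At an unadjusted p under 0.05 the full comparison of 3 against 3 had 0 members and 1428 genes (7.16%). The smallest adjusted p of a member was 0.673. Hoxa6, Hoxb9, Hoxc5, Hoxc6, Hoxc8, Hoxd8 and Hoxd10 were higher with dox in all 3 lines, 7 of 37 against 15.2% of all genes, and Hoxd4 was lower in all 3, 1 of 37 against 18.5%.

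Levels were next compared between the lines. Without dox, the Pcgf6 hairpin lines and the scrambled line differed for 0 members and 0 of 19938 genes by limma, a background of 0%. At an unadjusted p under 0.05 they differed for Hoxd8 among members and for 1607 genes (8.06%). Hoxd8 was higher in the uninduced Pcgf6 lines by 0.41 (SE 0.10, limma adjusted p = 0.378, n = 2 against 1), Hoxc12 by 0.32 (SE 0.14, adjusted p = 0.629) and Hoxc8 by 0.73 (SE 0.47, adjusted p = 0.773). The uninduced scrambled sample was the lowest of 6 for 13 of 37 members, against 18.8% of all genes. It was also the sample with the lowest feeder mean, 9.20, and the part of feeder cells was not tested.

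The lines were also compared over both dox states, a comparison chosen after the values had been seen. The samples with and without dox of a line served as its replicates. These p-values therefore measure spread within lines and not between separately made lines. Both shRNA1 samples were above the 4 others for Hoxb2, Hoxc5, Hoxc6, Hoxc8, Hoxc13, Hoxd10 and Hoxd11, 7 of 37, against 6.83% of all genes. By limma the shRNA1 line differed from the shRNA2 line for 0 members and 0 genes, a background of 0%. At an unadjusted p under 0.05 it differed for Hoxb2, Hoxc5, Hoxc8 and Hoxd10 among members, and for 953 genes (4.78%). From the scrambled line it differed for 0 members and 0 genes after adjustment (0%), and at an unadjusted p under 0.05 for Hoxb2, Hoxb9, Hoxc5, Hoxc6, Hoxc8, Hoxd10 and Hoxd11 and for 1443 genes (7.24%). All 7 were higher in the shRNA1 line. The shRNA2 and scrambled lines differed for 0 members and 3 genes (0.015%; between 0 and 56 genes when 1 sample was left out, the 56 without uninduced shRNA2), and at an unadjusted p under 0.05 for Hoxc12 and 1572 genes (7.88%).

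Hoxb2, a hindbrain gene, measured 7.47 and 7.38 in the shRNA1 line with and without dox, 6.94 and 7.03 in the shRNA2 line, and 6.95 and 6.88 in the scrambled line. The shRNA1 samples did not overlap the others, and the shRNA2 and scrambled lines did. The difference was 0.43 (SE 0.09, limma adjusted p = 0.712) from shRNA2 and 0.51 (SE 0.09, adjusted p = 0.69) from scrambled. The feeder mean was 10.11 in both shRNA1 samples and 10.45 and 9.98 in the shRNA2 samples. With the feeder mean as a covariate, a fit chosen after seeing the data, the difference from shRNA2 was 0.43 (SE 0.09, limma adjusted p = 0.211). The part of feeder cells in the level of Hoxb2 was not otherwise tested.

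Hoxc8 was higher in the shRNA1 line than in the shRNA2 line by 0.93 (SE 0.27, limma adjusted p = 0.996) and than in the scrambled line by 0.88 (SE 0.27, adjusted p = 0.69). With the feeder mean as a covariate, a fit also chosen after seeing the data, the first difference was 1.06 with a limma adjusted p of 0.0434. Hoxc8 was then the only one of 37 members called, against 14 genes (0.0702%), and the second was 0.12 with an adjusted p of 0.985. The feeder mean was 10.11 on both shRNA1 arrays, so the shRNA2 and scrambled pairs set the slope of the covariate. In both of those pairs it was higher with dox, and the fit had no term for dox, so within them feeder mean and dox cannot be told apart. The shRNA1 pair differed in dox but not in feeder mean, and there Hoxc8 changed by 0.03. The part of either in the level of Hoxc8 was not tested. The call also rests on spread within lines alone. Hoxc5 measured 6.75 and 6.71 in the shRNA1 line, 6.38 and 6.26 in the shRNA2 line and 6.56 and 6.44 in the scrambled line, with and without dox. Hoxc6, its neighbour, measured 7.02 and 6.95, 6.83 and 6.80, and 6.67 and 6.64. Averaged over the 9 genes of cluster C, signal stood 0.19 and 0.14 above the 6-array mean in the shRNA1 samples with and without dox and 0.13 and 0.15 below it in uninduced shRNA2 and scrambled. Without Hoxc8 the 8 other genes stood 0.13 and 0.09 above it and 0.08 and 0.08 below it on the same arrays. Clusters B and D also stood above the 6-array mean in the shRNA1 samples with and without dox, by 0.11 and 0.05 for B and 0.08 and 0.02 for D. In uninduced shRNA2 and scrambled their deviations were -0.01 and -0.05 for B and 0.02 and -0.07 for D. The average over the 10 genes of cluster A stayed within 0.03 of the 6-array mean on every array.

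**Figure D3:**
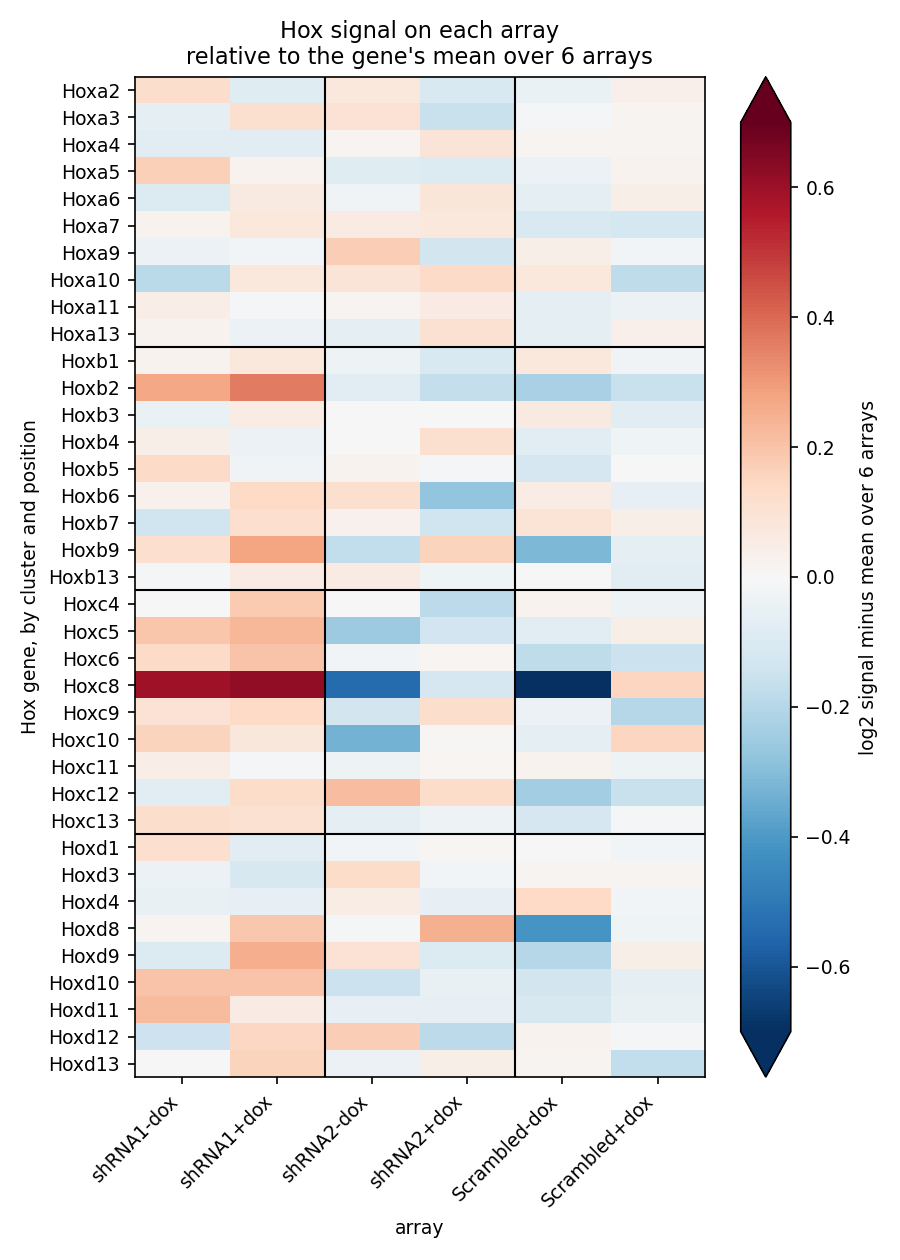
Log2 signal of each Hox gene on each of the 6 arrays minus the gene's mean over the 6, with red above and blue below, clusters A to D separated by horizontal lines and hairpin lines by vertical ones. Both shRNA1 columns are red for Hoxb2, Hoxc5, Hoxc6 and Hoxc8, and uninduced scrambled is blue for Hoxb9, Hoxc8 and Hoxd8, while cluster A is pale throughout.

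**Figure D4:**
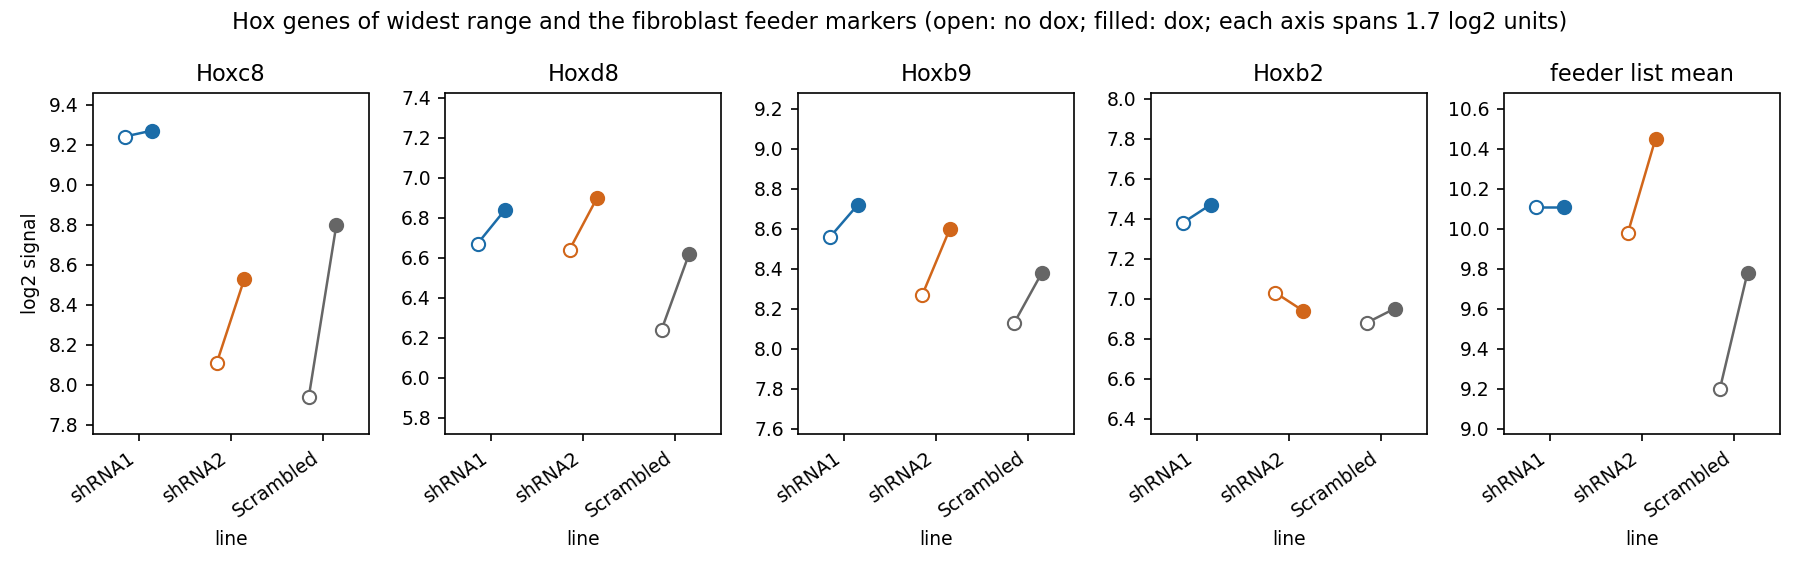
Log2 signal of Hoxc8, Hoxd8, Hoxb9 and Hoxb2 and the mean of 21 fibroblast feeder markers in each line, open circles without dox and filled circles with dox, 1 array per circle. Hoxc8 is at 9.24 and 9.27 in the shRNA1 line, where the feeder mean is 10.11 on both arrays, and both are lowest in uninduced scrambled, at 7.94 and 9.20.

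Non-coding genes inside or beside the clusters were near the low end as well. Of 10 measured, 0 passed in any of these comparisons, and 8 were not above the receptor level on all 6 arrays. The clusters carry microRNAs in register: miR-10 genes lie beside the group 4 genes of clusters B and D and miR-196 genes beside group 9 or 10 genes of clusters A, B and C, and miR-196 is known to repress Hoxb8 and Hoxc8. Their mature sequences are given because paralogues share a seed (bases 2 to 8, in capitals), from RefSeq on GRCm38.p6.
miR-10a-5p: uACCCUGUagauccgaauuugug
miR-10b-5p: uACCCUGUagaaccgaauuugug
miR-196a-5p: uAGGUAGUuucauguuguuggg
miR-196b-5p: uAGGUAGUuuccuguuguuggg
The array reads gene regions of the precursors, not mature microRNAs. Mir10a measured between 3.19 and 3.53, Mir10b between 3.22 and 3.42, Mir196a-1 between 4.43 and 4.60, Mir196a-2 between 4.37 and 4.62 and Mir196b between 5.57 and 5.76, all under the receptor level. The antisense gene Hoxaas2 measured between 5.89 and 6.16. Hottip, a non-coding gene at the posterior end of cluster A, differed by 0.09, -0.13 and 0.32 in the shRNA1, shRNA2 and scrambled lines, and Haglr of cluster D by 0.16, -0.16 and -0.35.

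The nearest measured genes outside the clusters, 2 on each side, numbered 16, and 0 of them passed in any planned comparison. They included the homeobox genes Evx1 (-0.02, -0.06 and -0.04 in the shRNA1, shRNA2 and scrambled lines) and Evx2 (0.03, -0.05 and -0.16). The gene of widest range was Calcoco2, beyond Ttll6 at the posterior end of cluster B, which varied by 1.43 over the 6 arrays and differed by -0.14, -0.62 and -0.28. Mtx2, beside Hoxd1, differed by 0.21, 0.28 and -0.01. Skap2, Snx10 and Hottip of the A flanks, Ttll6, Gm11529 and Skap1 of the B flanks, Calcoco1, Mir688, Smug1 and Cbx5 of the C flanks, and Lnpk and Nfe2l2 of the D flanks varied by between 0.13 and 0.67.

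Genes that act with or on Hox genes did not pass either. Of the Hox cofactors, which bind DNA together with Hox proteins, 0 of 8 rose and 0 fell with the Pcgf6 hairpins. Meis2 measured 7.90 and 7.83 in the induced Pcgf6 samples, 7.78 and 7.31 without dox, and 7.50 and 7.19 in scrambled with and without dox. Pbx4, Meis3 and Pknox1 were the others of largest change, with differences within a line between -0.31 and 0.39. Of the Cdx and ParaHox genes 0 of 6 passed. Cdx2, an activator of Hox genes in the posterior embryo and a trophectoderm factor, was higher with dox in every line, by 0.22, 0.25 and 0.23 (0.24 over both Pcgf6 hairpins, SE 0.09, limma adjusted p = 0.538). Cdx4, Gsx1 and Gsx2 differed by between -0.34 and 0.17 in a line.

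Of 17 measured genes of the retinoic acid pathway, 0 passed in any planned comparison. Rxrg, a retinoid receptor gene, measured 7.72 and 7.37 in the induced Pcgf6 samples and 8.21 and 7.99 without dox, and 7.76 and 7.43 in scrambled with and without dox. It was thus lower with dox under both Pcgf6 hairpins and higher in the scrambled pair, with a change of -0.56 (SE 0.14, limma adjusted p = 0.385) and a difference between responses with an adjusted p of 0.915. Cyp26a1, which degrades retinoic acid, differed by -0.02, 0.45 and 1.00 in the shRNA1, shRNA2 and scrambled lines. Aldh1a2, which makes retinoic acid, differed by 0.15, 0.57 and 0.11, and the binding protein gene Crabp1 by 0.42, 0.20 and 0.18.

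All measured members of the Polycomb and trithorax lists, which hold repressors and activators of the clusters, were above the receptor level on every array. Of 16 other PRC1 subunits, 12 PRC2 subunits and 10 MLL or trithorax genes, 0 rose and 0 fell in any planned comparison. Pcgf5 (0.16, 0.37 and -0.26 in the shRNA1, shRNA2 and scrambled lines), Cbx8 (-0.09, 0.21 and -0.18), Phc3 (0.05, 0.35 and 0.30) and the CpG-binding subunit gene Kdm2b (-0.24, -0.19 and 0.08) had the largest changes in PRC1. Among PRC2 genes these were Phf19 (0.17, 0.34 and -0.34), Aebp2 (-0.24, -0.09 and -0.22), Phf1 (-0.12, 0.19 and 0.16) and Mtf2 (-0.03, -0.25 and -0.14). Among activators Psip1 (-0.07, -0.39 and -0.14), Dpy30 (-0.08, -0.35 and -0.12), Kdm6a (-0.16, -0.20 and 0.08) and Kdm6b (0.02, 0.29 and 0.31) changed most.

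Other developmental homeobox genes, 81 of 89 measured, gave the same count as the Hox genes, 0 called in any planned comparison. Their median change was 0.02, -0.08 and -0.02 in the shRNA1, shRNA2 and scrambled lines, against 0.04, 0.02 and 0.03 for the Hox genes, and their median range over the arrays was 0.28 against 0.26. The difference between these families was not tested. Prrx1, which is also a feeder marker, differed by 0.10, 0.42 and 1.12, Lhx1 by -0.24, 0.17 and 0.84, Pax6 by -0.33, -0.43 and -0.63 and Mnx1 by -0.28, -0.28 and -0.47. Of 13 measured streak and mesoderm markers, Mixl1 (0.11, 0.27 and 1.40), Eomes (0.00, 0.24 and 0.72), Pdgfra (-0.07, 0.88 and 0.65) and Wnt3 (0.22, 0.52 and 0.56) differed most, and 0 of the 13 passed. Pdgfra, like the feeder mean, was highest in induced shRNA2 and lowest in uninduced scrambled, and the part of feeder cells in it was not tested. Over the 13 the medians were -0.02, 0.02 and 0.05, with 5, 7 and 9 higher with dox, and Gsc, chosen after its values were seen, was lower in every line (-0.14, -0.35 and -0.21). Of 10 measured neural and ectoderm markers 0 passed, and Nes, Neurog2 and Olig2 differed by between -0.32 and 0.42 in a line. The named pluripotency genes Klf2, Dppa3, Prdm14 and Fgf4 differed by between -0.54 and 0.36, and 0 of 16 passed. Of the feeder markers 0 of 21 passed, and Pdgfrb, Twist2 and Tbx15 differed by 0.71, 1.07 and 0.93 in the scrambled pair.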

How the data were processed

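Gene expression in 6 V6.5 stem cell samples was read on GeneChip Mouse Gene 1.0 ST arrays. The authors deposited log2 signals. The submitters' processing notes name RMA, run in Affymetrix Power Tools (background correction, a common distribution over arrays, probe-set summary), so a shift common to most genes is lost. Tool versions, options and the genome build are not given in the sources used here. RefSeq GRCm38.p6 served for names, neighbours and printed sequences.

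Of 35556 probe sets, 21789 with 1 symbol gave 19938 genes, the brightest probe set being taken per gene. All were tested without a filter on level, with limma 3.58.1 in R 4.3.3, two-sided, Benjamini-Hochberg adjusted over all genes at a threshold of 0.05. Models had 1 mean per group (2 residual and 4.44 prior degrees of freedom), 2 groups for dox against none (4 and 3.66), or 1 mean per line (3 and 3.83). Single scrambled samples were assumed to vary like the hairpin groups. SE is limma's moderated standard error, and p-values reflect the spread among these 6 arrays alone, part of which may be technical. Precision is limited by the few arrays. In simulated data the fits returned added changes of the right mean size, and none called had the wrong sign. These changes were larger than any fitted for a Hox gene in a planned comparison, so they give no detection rate for smaller ones.

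The hairpin number pairs samples, since both carry the same hairpin (correlation of deviations across genes 0.181). Members and lists were chosen with earlier results of these data known. Named were all members, Pcgf6, the 2 nearest measured genes on each side of a cluster, and from each list up to 4 members with the largest mean absolute change over lines, or any called. Alternatives were the hairpin as a block, centring, quantile normalization, filters on dim genes, means over probe sets, an intensity trend, a feeder covariate and leaving out samples.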

Additional observations from a re-analysis of the deposited data

Results flagged for a closer look

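Among the genes named above, Pcgf6 alone passed a test of the difference in dox response between the Pcgf6 hairpin lines and the scrambled line, which was -2.33 on the log2 scale (SE 0.17, limma adjusted p = 0.0256). The adjusted p rose to 0.126 without uninduced shRNA1 or uninduced shRNA2 and to 0.0536 without induced shRNA2. Of the Hox genes, 0 of 37 passed.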

How the results depend on the processing

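Of the planned comparisons, each called 0 Hox genes under every alternative run, and the hairpin as a replicate block changed no Hox call. With that block, induced against uninduced Pcgf6 hairpins gave 54 genes in place of 40, and the difference from scrambled 23 in place of 14. Over all genes, the first comparison called 7 without the dimmest 50% of genes (which leaves 2 Hox genes), 62 with an intensity trend, 21 with the feeder mean as a covariate, and 14 to 26 when a sample was left out. The difference from scrambled called 22 with median centring, 9 and 4 without the dimmest 25% and 50%, 0 with the feeder covariate, and 0 to 4 when a sample was left out. Dox against none over the 3 lines called 0 to 54 when a sample was left out. The 54 came without induced scrambled, where every sample left with dox was a Pcgf6 knockdown. Between the shRNA1 and shRNA2 lines, a comparison chosen after seeing the data, the feeder covariate gave 14 genes and 1 Hox gene (Hoxc8), and median centring 2 genes. Between the shRNA2 and scrambled lines, dox as a term gave 93 genes, the feeder covariate 0, and leaving out a sample 0 to 56. The cause of these shifts was not tested. For Pcgf6 the difference from scrambled lost its call with the feeder covariate (-2.49, limma adjusted p = 0.0737) and when induced shRNA2 (adjusted p = 0.0536), uninduced shRNA1 or uninduced shRNA2 (adjusted p = 0.126 for each) was left out. Signals near the low end of the arrays limit what can be seen of many Hox genes.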
